A study of Macaca mulatta with 12 samples.

Results

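Of 12 liver RNA libraries from 6 male rhesus macaques, 5 stood apart from the other 7 along the first principal component of log2 CPM (counts scaled to the depth of a library), and the 4 groups of the study do not name this division. They were post-induction libraries of LD2, LD3, VHD1 and VHD3 and the baseline library of VHD2, where the digit is the animal within its drinking class. The 5 were picked by their measured gene values, and the rule also takes in the miRNA counts. Every difference between the 5 and the 7 libraries in gene or miRNA levels is therefore given as a description, without a test. Differences are means of log2 CPM over the 5 minus means over the 7.

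The animals were about 4.6 years old. Each was biopsied before ethanol (day 0, baseline) and at the end of a 90-day induction in which all of them took 0.5, 1 and 1.5 g of ethanol per kg per day, 30 days at each dose. LD (light drinkers, 1.5 g per kg per day) and VHD (very heavy drinkers, 4.0 g per kg per day) name the intake that each animal reached later, over 12 months of free access, so the baseline livers of both classes had not met ethanol in the study. Class and biopsy give 4 groups, each of 3 libraries from 3 animals, with no arm that was biopsied again without ethanol. The biopsies are whole liver tissue, so fewer cells of a type and less RNA per cell cannot be told apart.

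The liver makes most plasma proteins, and the RNA of a biopsy is dominated by hepatocyte transcripts, with ALB (albumin) alone at 7.60 to 15.3% of the transcript counts of a library. Ribosomal protein genes have short, abundant messenger RNAs. C/D and H/ACA box small nucleolar RNAs (snoRNAs) guide the chemical modification of ribosomal RNA in the nucleolus, and spliceosomal small nuclear RNAs act in splicing. MicroRNAs (miRNAs) pair with messenger RNAs through their seed and lower their output, and miR-122 is the leading miRNA of hepatocytes. The Combo-Seq preparation makes the messenger RNA and miRNA libraries from the same RNA and combines them before sequencing, so the counts of both classes come from 1 pool per biopsy.

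Component 1 held 31.4% of the variance of 18373 genes. Its scores were 79.3 in LD post-induction 2, 79.0 in LD post-induction 3, 64.9 in VHD post-induction 3, 45.2 in VHD baseline 2 and 7.22 in VHD post-induction 1. The 7 libraries ran from -67.8 in LD post-induction 1 to -5.61 in VHD baseline 3. VHD post-induction 1 and VHD baseline 3 were therefore the libraries just inside and just outside. The gap between them is small beside the spread within each side. A component analysis of 427 miRNAs placed the same libraries on the same sides. Its first component, with 39.2% of the variance, scored 6.87 to 14.7 in the 5 and -24.3 to 4.09 in the 7. The rule that names the 5 also takes in the miRNA counts, so this is a description and no separate support.

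**Figure D1:**
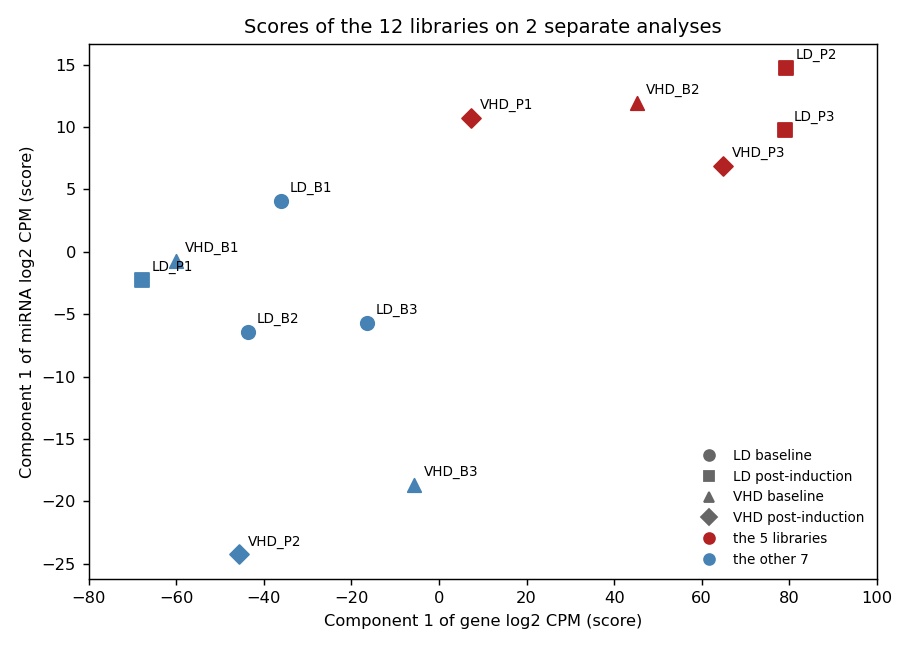
Score of each library on the first component of gene log2 CPM (horizontal axis) and of miRNA log2 CPM (vertical axis). LD and VHD are the drinking classes, B is baseline, P is post-induction and the digit is the animal. The 5 libraries lie to the right of 7.22 and above 6.87, and VHD_P1 is the nearest of them to the other 7 on the gene axis.

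A further pair, VHD baseline 3 and VHD post-induction 2, stood apart from the rest within the 7, with scores of -92.6 and -82.3 on the second component (20.6% of the variance), where the other 10 libraries scored -26.5 to 39.95. Without this pair, 51 of 54 named genes and 25 of 25 named miRNAs that part the sides by at least 2-fold still did. They were chosen for having no overlap, and leaving out libraries rarely creates an overlap, so these counts were near certain beforehand. Of the named features, 6 of 66 miRNAs and 0 of 77 genes moved by over 1.5-fold, among them miR-636, lower in the 5, from -2.85 to -2.10. Spearman correlations of log2 CPM were 0.888 to 0.966 (median 0.929) in 31 pairs of libraries from the same side and 0.854 to 0.943 (median 0.897) in 35 pairs from different sides, and the ranges overlapped. Taking the 5 highest scores on component 1 gave the same 5 libraries with RLE in place of TMM factors and with the deposited normalized values. It returned 10 of 12 libraries to their sides with transcripts in place of genes, with genes scaled to unit variance or with library totals alone. Without the pair, all 10 remaining libraries kept their sides.

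Neither the time point nor the drinking class was the same as the division. Of the 5 libraries, 4 were post-induction and 1 was baseline, against 2 and 5 of the 7 (two-sided Fisher's exact test, p = 0.242). The classes were divided as 2 LD and 3 VHD against 4 LD and 3 VHD (two-sided Fisher's exact test, p = 1). Both tests count the libraries as independent, though each animal gave 2 of them. In 5 animals the 2 biopsies lay on different sides, and both biopsies of LD animal 1 lay among the 7. In animal VHD2 the baseline biopsy was the one among the 5, and in LD2, LD3, VHD1 and VHD3 it was the post-induction biopsy. The labels used here name no batch of extraction, preparation or sequencing, and the part of such a batch in the division was not tested.

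Sequencing depth overlapped between the sides. Transcript counts were 7180516 to 20103894 in the 5 libraries and 5970033 to 25060718 in the 7, a ratio of geometric means of 0.821 (exact permutation test over 792 splits, two-sided p = 0.458). Mature miRNA counts were 157174 to 613359 and 127740 to 420249, a ratio of 1.55 (exact permutation p = 0.130, 0.195 after Benjamini-Hochberg adjustment over the 3 measures). The miRNA counts per 1000 transcript counts were 43.5, 34.2, 21.9, 29.6 and 30.5 in the 5 libraries (in turn those of LD2, LD3, VHD1, VHD2 and VHD3), and 9.39 to 21.8 (median 19.5) in the 7. The sides did not overlap, although VHD post-induction 1 (21.889) was next to VHD baseline 1 (21.839). The ratio was 1.89-fold higher in the 5, with an exact permutation p of 0.00253 and an adjusted p of 0.00758, where the smallest p that the splits allow is 0.00126. Those splits treat the libraries as unpaired. Within the animals, the library among the 5 had 2.62, 1.73, 1.002, 2.49 and 3.25 times the ratio of the other, higher in 5 of 5 but close to equal in VHD1. An exact sign-flip permutation test over these 5 animals gave p = 0.0625 for the ratio, the smallest it can give, so it could not pass 0.05. Transcript counts were lower in the library among the 5 in 5 of 5 animals (0.647 to 0.828 times, exact sign-flip permutation p = 0.0625). The sides were picked from the same count tables after scaling to depth, so the ratio, though no part of the rule, is not fully separate from it.

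Among the genes, 845 had values that did not overlap between the sides and means at least 2-fold apart, which is 4.60% of those measured. Of these, 507 were higher in the 5 libraries (2.76%) and 338 lower (1.84%), and 1315 (7.16%) did not overlap at any size. Because the same values chose the libraries, these counts describe the division and support nothing about it. The median difference over all genes was 0.08. With library totals alone that median was 0.27 and the split was 733 higher and 141 lower, and with the deposited normalized values it was 233 higher and 291 lower. Leaving out the boundary library, VHD post-induction 1, gave 1676 genes (999 higher and 677 lower), and leaving out VHD post-induction 2 and VHD baseline 3 gave 1404 (945 and 459).

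The genes on the 2 directions differed in abundance and size. Those higher in the 5 had a median mean level of 0.94 on the log2 CPM scale, those lower 3.61, and all genes 2.27. In the tenth of genes with the lowest mean level the median difference was 0.50 and 101 genes were higher against 9 lower. In the tenth with the highest level it was -0.18, with 7 higher and 57 lower. The genomic span of a gene had a median of 19734 bases among those higher, 5957 among those lower and 20719 overall. In the tenth with the longest spans 80 genes were higher and 5 lower. Across the 18373 genes, which are not independent and share their libraries, Spearman's rho of the difference was -0.33 with the mean level and 0.18 with the span.

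The gene with the widest separation was SLC15A2 (chromosome 2, 43075239 to 43126972, forward strand, build Mmul_8.0.1, as the authors' table gives it), which codes for the peptide transporter PEPT2. It stood at 82.1, 158, 85.1, 44.6 and 169 CPM in the 5 libraries and 1.85 to 7.402 CPM (median 4.295) in the 7. The values of the 5 follow that same order here and below. Its lowest value in the 5 lay far above its highest in the 7, and the difference was 4.52. The differences within the animals LD2, LD3, VHD1, VHD2 and VHD3 were 4.17, 4.39, 3.70, 3.36 and 5.26, while LD animal 1, with no library among the 5, changed by -0.46 from baseline to post-induction. The differences of SLC15A1 and SLC15A4, of the same gene family, were 0.46 and 0.41; both genes were chosen after their values were seen.

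SEMA4F (chromosome 13, 75681426 to 75710674, forward strand), a semaphorin known from axon guidance, was the most abundant of the 10 genes with the largest positive differences. It stood at 403, 612, 458, 167 and 618 CPM in the 5 libraries and 14.1 to 58.9 CPM (median 35.99) in the 7, a difference of 3.75. HAS1, a hyaluronan synthase, stood at 251, 167, 44.6, 142 and 179 CPM in the 5 libraries and 7.56 to 44.2 CPM (median 16.9) in the 7. The lowest of the 5 for HAS1, VHD post-induction 1, nearly met the highest of the 7. IL2RB, the beta chain of the interleukin-2 receptor, stood at 321, 192, 45.4, 210.1 and 75.9 CPM in the 5 libraries and 11.7 to 31.7 CPM (median 13.1) in the 7, again with VHD post-induction 1 lowest of the 5. The differences of HAS1 and IL2RB were 3.07 and 3.05.

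The rest of these 10 genes were of low abundance and of unlike functions. U12, the small nuclear RNA of the minor spliceosome, stood at 7.45 to 35.7 CPM in the 5 and 0.383 to 3.52 CPM in the 7. MTBP, which binds the p53 regulator MDM2, stood at 6.16 to 48.2 CPM in the 5 and 0.865 to 2.85 CPM in the 7. WNT2B, a Wnt ligand, stood at 13.7 to 43.7 CPM in the 5 and 0.821 to 4.46 CPM in the 7. DUSP15 (a phosphatase), DDX4 (an RNA helicase of germ cells) and MYL4 (a myosin light chain of the heart atrium) had differences of 3.26, 3.15 and 2.92. None of the 10 belongs to a list of liver metabolism.

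The 10 largest negative differences were smaller in size. KRT12 (chromosome 16, 46686804 to 46693172, reverse strand), a keratin known from the cornea, stood at 0.582, 1.15, 5.52, 1.54 and 1.62 CPM in the 5 libraries and 7.79 to 34.6 CPM (median 18.3) in the 7, a difference of -3.25. VHD post-induction 1 was the highest of the 5. PGF, placental growth factor, stood at 4.72, 4.98, 12.1, 4.99 and 13.2 CPM in the 5 libraries and 19.9 to 55.4 CPM (median 38.9) in the 7, a difference of -2.25. PILRA, an inhibitory receptor of myeloid cells, stood at 0.647 to 1.93 CPM in the 5 and 3.31 to 12.9 CPM in the 7. DNLZ, a co-chaperone of mitochondria, ASIC3, an acid-sensing ion channel, and FUT10, a fucosyltransferase, had differences of -2.30, -2.13 and -1.87. DHRS13, PACSIN3, MZT2B and LAGE3 lay between -1.91 and -1.80.

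**Figure D2:**
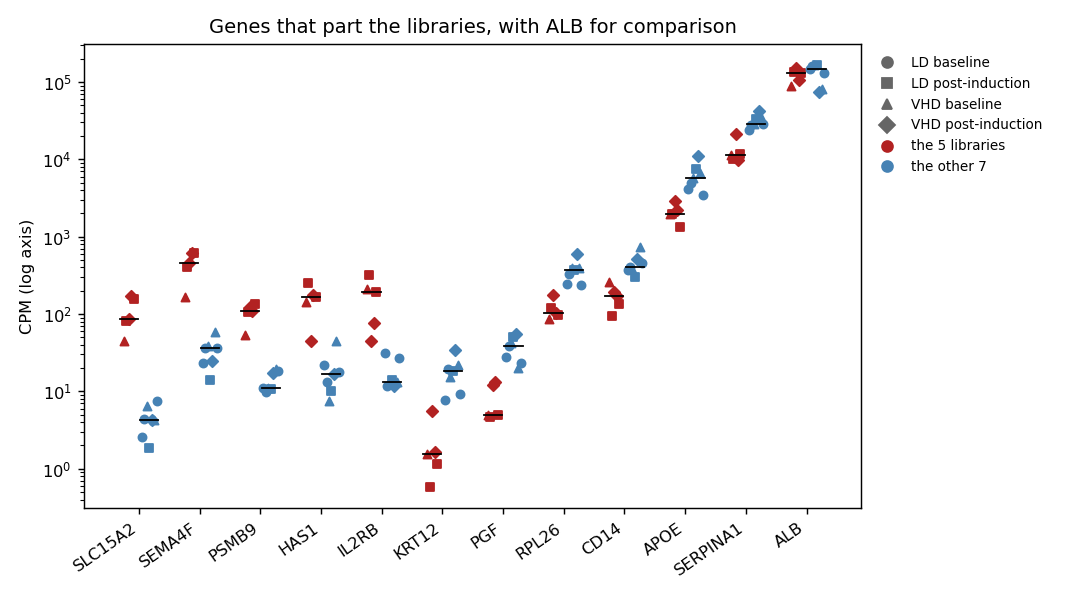
CPM on a log axis of 12 genes in each library, the 5 in red and the other 7 in blue, with symbols for the groups and a line at each side's median. The first 5 genes are higher in the 5 libraries without overlap, the next 6 are lower without overlap, and ALB overlaps.

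Genes of the translation machinery lay lower in the 5 libraries. Of 68 ribosomal protein genes, 64 had a negative difference and the median was -0.79, against 0.08 for all genes, and 10 were lower without overlap and by at least 2-fold, against 1.84% of all genes. All genes are on average less abundant than these. In the tenth of genes with the highest mean level the median was -0.18, with 57 of 1838 lower. The summed level of the ribosomal protein genes was 8294 to 12846 CPM in the 5 libraries and 13095 to 25273 CPM in the 7, without overlap. As a share of all transcript counts, without TMM factors, it was 0.822 to 1.30% and 1.16 to 2.56%, which overlapped. RPL26, a protein of the large subunit, stood at 119, 96.99, 174, 85.6 and 104 CPM in the 5 libraries and 236 to 603 CPM (median 375) in the 7. RPL28 and RPL8 had differences of -1.56 and -1.56. The median of the list was negative under each scaling tried, from -0.59 with library totals alone to -0.85 without small RNA genes.

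The ribosomal protein median was also negative within each animal whose biopsies lay on different sides, at -0.75, -0.84, -0.45, -1.19 and -0.48 in LD2, LD3, VHD1, VHD2 and VHD3. VHD2 is the animal whose baseline biopsy was among the 5, and its value was the most negative. In LD animal 1 the post-induction library was higher than the baseline library by 0.52. Without VHD post-induction 1, 23 of the 68 genes were lower in place of 10, and without VHD post-induction 2 and VHD baseline 3 it was 11. Leaving out a library makes a lack of overlap easier to reach, though a difference of means can then fall under 2-fold. Without VHD post-induction 1 the count over all genes, in either direction, rose from 845 to 1676. Ribosomal protein genes have many near-identical processed copies, and how the authors' counting divided reads among them is not given in the sources used here.

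Genes of the mitochondrial ribosome and the respiratory chain shared the direction. For 46 mitochondrial ribosomal proteins, which build the ribosome of that organelle, the median was -0.62, with 40 negative. By at least 2-fold without overlap, 4 were lower (8.7%, against 1.84% of all genes). MRPL52 was among these 4 and stood at 2.97 to 5.35 CPM in the 5 and 8.998 to 19.7 CPM in the 7. The 47 nuclear-encoded respiratory chain subunits had a median of -0.53, with 44 negative and 7 lower by at least 2-fold without overlap (14.9%). NDUFA1 of complex I stood at 13.7, 13.8, 30.2, 15.6 and 15.3 CPM in the 5 libraries and 40.7 to 81.9 CPM (median 48.5) in the 7, and NDUFS8, NDUFS6 and NDUFA6, also of complex I, had differences of -1.45, -1.42 and -1.39. No mitochondrially encoded gene was among those measured. For 19 translation initiation and elongation genes the median was -0.44, and no member reached 2-fold without overlap.

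Among 41 proteasome subunits, which degrade tagged proteins, 35 were negative and the median was -0.47. The single gene past 2-fold without overlap was higher (2.44%, against 2.76% of all genes). PSMB9, a catalytic subunit of the immunoproteasome, stood at 105, 136, 124, 52.9 and 109 CPM in the 5 libraries and 9.93 to 19.7 CPM (median 11.1) in the 7, a difference of 2.88. PSMB8, another catalytic subunit of the immunoproteasome, had a difference of 0.03 with overlap, and was chosen after its value was seen. The 20 interferon-stimulated genes had a median of -0.04 and none of them parted the sides. PSMA7, PSMA6 and PSMA4 of the core did not overlap but differed by -0.73, -0.61 and -0.53.

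Small noncoding RNAs lay mostly on the other side. Of 134 C/D box snoRNAs, 120 had a positive difference, with a median of 0.56. Only 2 were higher by at least 2-fold without overlap (1.49%, against 2.76% of all genes). One of these, SNORD53, stood at 41.1, 42.4, 21.2, 20.8 and 31.3 CPM in the 5 libraries and 7.27 to 14.2 CPM (median 10.02) in the 7. C/D box snoRNAs took 13.6, 17.2, 6.24, 10.8 and 16.4% of the transcript counts of the 5 libraries and 5.90 to 12.2% (median 7.23%) of the 7. The ranges overlapped widely: VHD post-induction 1 and VHD baseline 2 lay within the range of the 7, and 6 of the 7 lay within that of the 5. The 95% Wilson intervals of these shares were at most 0.0228 percentage points to either side, those of the ribosomal protein shares at most 0.00915, and they cover counting error only. The median within animals was 0.68, 0.40, -0.38, 1.24 and 1.22, so the pair of VHD1 had the opposite sign.

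The other small RNA classes behaved alike in this respect. The 106 spliceosomal and other small RNAs had a median of 0.67, and the pair of VHD1 had -0.34. By at least 2-fold without overlap, 4 were higher (3.77%, against 2.76% of all genes) and 2 lower (1.89%, against 1.84%). These shares were near those of all genes. The 72 H/ACA box snoRNAs and 10 Cajal body RNAs had medians of 0.22 and 0.22, and none of them passed 2-fold without overlap. Without VHD post-induction 1, 11 C/D box snoRNAs were higher and the median was 0.72, while the count over all genes, in either direction, rose from 845 to 1676. Without VHD post-induction 2 and VHD baseline 3, 1 was higher and the median was 0.28. Copies of these RNAs can share reads, so values of single members are uncertain.

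**Figure D3:**
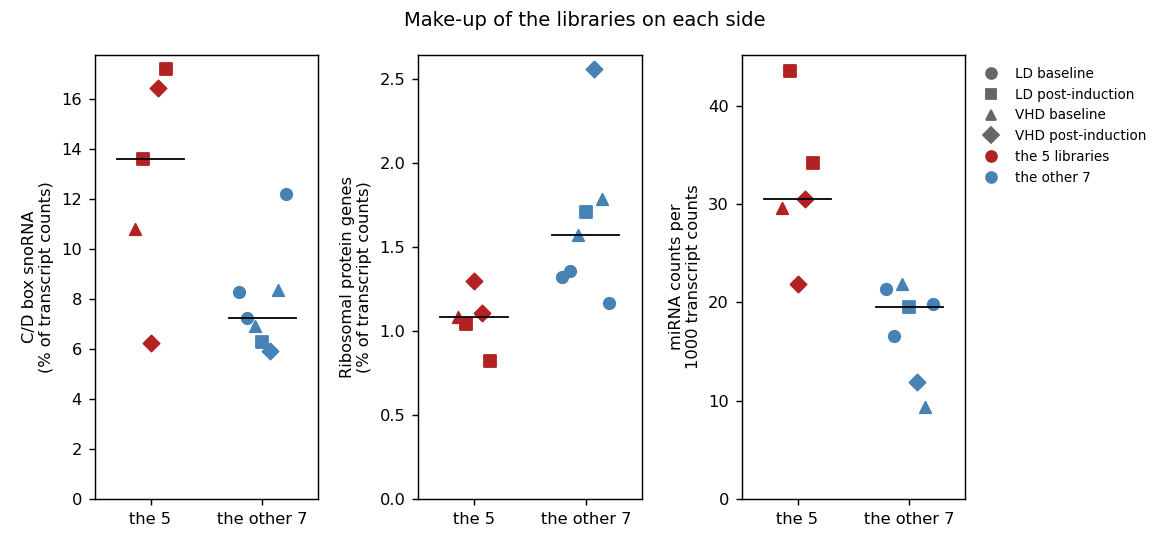
Share of transcript counts from C/D box snoRNAs (left) and from ribosomal protein genes (middle), and miRNA counts per 1000 transcript counts (right), for the 5 libraries in red and the other 7 in blue, with a line at each median. The left and middle panels overlap between the sides, and the right panel does not, with 21.9 the lowest of the 5 and 21.8 the highest of the 7.

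Secreted liver proteins lay lower, unevenly. Of 20 secreted plasma protein genes 19 were negative, with a median of -0.60. By at least 2-fold without overlap, 2 were lower (10%, against 1.84% of all genes). APOE, an apolipoprotein of remnant particles, stood at 1972, 1334, 2854, 1980.5 and 2226 CPM in the 5 libraries and 3432 to 10996 CPM (median 5717) in the 7. SERPINA1, which codes for alpha-1-antitrypsin, stood at 10218, 11682, 21209, 11461 and 9884 CPM in the 5 libraries and 23950.0 to 42316 CPM (median 28381) in the 7. Their differences were -1.53 and -1.32, and AMBP and RBP4 (the plasma carrier of retinol) followed without overlap at -0.96 and -0.81. ALB did not part the sides, with 88636 to 151130.0 CPM in the 5 and 75121 to 165560.0 CPM in the 7 and a difference of -0.07. APOA1, the main protein of high-density lipoprotein, had a mean difference as large as that of APOE, -1.52, but overlapped, at 658 to 2016 CPM in the 5 and 1511 to 5385 CPM in the 7.

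Coagulation and complement genes had a median of -0.30 and PROC, the precursor of activated protein C, was lower without overlap at -1.48. It was 1 of 28 past 2-fold without overlap (3.57%, against 1.84% of all genes). Amino acid breakdown and the urea cycle had a median of -0.38 over 21 genes. SDSL (-1.26) was the 1 member of 21 past 2-fold without overlap (4.76%). ARG1, which makes urea, stood at 544 to 798 CPM in the 5 and 845 to 1206 CPM in the 7 without overlap. Among 13 genes known from periportal hepatocytes the median was -0.51, and AGXT, which detoxifies glyoxylate, stood at 155 to 227 CPM in the 5 and 292 to 801 CPM in the 7, a difference of -1.28. Among 13 known from pericentral hepatocytes the median was -0.01 and none parted the sides. Within LD2, LD3, VHD1, VHD2 and VHD3 the pericentral medians were 0.42, 0.68, -0.51, 1.03 and 0.82, and the periportal medians -0.50, -0.76, -0.29, -0.38 and -0.14. With library totals alone the pericentral median was 0.19, with 12 of 13 positive and 2 higher by at least 2-fold without overlap.

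Lists of ethanol oxidation, lipid synthesis, cholesterol and bile acid genes differed little between the sides. Medians were -0.06 for 13 genes of ethanol and acetaldehyde oxidation, -0.03 for 19 of fatty acid and triglyceride synthesis, -0.04 for 14 of cholesterol synthesis and uptake and -0.06 for 17 of bile acid synthesis and transport. In the main setting no member of these lists was past 2-fold without overlap. With library totals alone these 4 medians turned positive, and 1 bile acid gene was higher by at least 2-fold without overlap. Without VHD post-induction 1, 2 bile acid genes and 1 ethanol gene were lower, while the count over all genes rose from 845 to 1676. CYP2E1, the cytochrome P450 that oxidizes ethanol, stood at 1489 to 3243 CPM in the 5 and 1228 to 3552 CPM in the 7, and FASN, the fatty acid synthase, at 32.6 to 541 CPM in the 5 and 38.3 to 237 CPM in the 7. For 23 genes of fatty acid oxidation and ketogenesis the median was -0.25. The cytochrome P450 list of 20 genes had a median of -0.21 with 6 positive and 14 negative, and the pair of VHD2 had 0.57. Both members whose sides did not overlap were higher in the 5. CYP4V2, a fatty acid hydroxylase, stood at 10.7, 14.95, 19.04, 7.201 and 13.3 CPM in the 5 libraries and 1.37 to 6.63 CPM (median 4.096) in the 7. CYP2C18 stood at 839 to 991 CPM in the 5 and 417 to 581 CPM in the 7.

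Immediate early genes had the opposite sign in the animal whose baseline library was among the 5. The 16 immediate early genes had a median difference of -0.65. Within animals the medians were -0.98, -1.34, -1.79, 1.07 and -1.16, the fourth being VHD2. In LD animal 1, with both libraries among the 7, post-induction minus baseline was -1.18. KLF6, an immediate early transcription factor, had within-animal differences of -2.45, -1.97, -2.87, 2.59 and -2.51, and HAMP, the iron hormone hepcidin, of -2.96, -2.34, -2.83, 1.09 and -2.41. JUND, a partner in the AP-1 factor, was the exception that parted the sides, at 4.85, 9.87, 8.55, 13.1 and 14.98 CPM in the 5 libraries and 18 to 55.8 CPM (median 31.4) in the 7. It was 1 of the 16 (6.25%), where 1.84% of all genes were lower.

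Markers of other cells gave few separations. Of 9 macrophage markers measured, each at 1 CPM or more in at least 1 library, 7 were negative and the median was -0.22. With library totals alone the median was -0.03, with 4 positive and 5 negative. Within animals the medians were 0.15, 0.11, -0.43, 0.25 and -1.15, so 3 of 5 were positive. Their summed level was 185 to 448 CPM in the 5 libraries and 492 to 996 CPM in the 7, without overlap, but without CD14 the sums were 91.8 to 186 CPM and 107 to 261 CPM, which overlapped. CD14, a receptor for endotoxin that hepatocytes also make, stood at 93.5, 133, 195, 261 and 174 CPM in the 5 libraries and 299.8 to 735 CPM (median 406) in the 7. It was the 1 marker of 9 past 2-fold without overlap (11.1%, against 1.84% of all genes). The part of macrophage RNA in the division was not tested. The 12 hepatocyte markers had a median of -0.41 and sums of 141936 to 224281 CPM in the 5 libraries and 159977 to 262860.0 CPM in the 7, which overlapped.

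Medians for stellate cells, sinusoidal endothelium and cholangiocytes were -0.27, -0.35 and 0.02, with no member past 2-fold without overlap. T and NK cell, B and plasma cell, neutrophil and erythrocyte lists had medians of 0.29, 0.32, 0.24 and 0.37, all on overlapping sums. Of their members CD8A, PAX5, ALAS2 and HEMGN were higher by at least 2-fold without overlap, at differences of 1.69, 1.70, 1.11 and 1.35. That was 1 of 8 T and NK cell, 1 of 7 B and plasma cell, 0 of 10 neutrophil and 2 of 8 erythrocyte genes. Of all genes 2.76% were higher. The genes named here were chosen after their values were seen, and they stood at 1.38 to 3.30 CPM in the 5 and 0.104 to 1.80 CPM in the 7. Their mean log2 CPM was -0.06 to 0.70, under the least mean level of 1 set for named genes. Of 20 cell cycle genes 16 were positive, and MKI67, a marker of dividing cells, stood at 2.72 to 4.28 CPM in the 5 and 1.04 to 2.66 CPM in the 7, a level close to 1 CPM in part of the 7.

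Lists of large nuclear and membrane proteins had medians above that of all genes, with few members past 2-fold. The 24 genes of chromatin and large nuclear proteins had a median of 0.34, with 20 positive and none past 2-fold without overlap, but the pair of VHD2 had -0.10 and the VHD baseline libraries differed by -0.09. Of 312 solute carriers, 212 were positive, the median was 0.32, and 9 were higher (2.88%, against 2.76% of all genes) and 2 lower, so the share called was near that of all genes. SLC35B4, a nucleotide sugar transporter, stood at 16.5, 3.07, 9.52, 12.4 and 7.85 CPM in the 5 libraries and 1.37 to 2.66 CPM (median 2.18) in the 7, and SLC5A1, the sodium glucose cotransporter SGLT1, at 14.4, 9.97, 5.93, 9.23 and 7.53 CPM in the 5 libraries and 1.96 to 4.84 CPM (median 2.795) in the 7. Of 319 ZNF zinc finger genes 14 were higher (4.39%) and 2 lower, with a median of 0.11, near that of all genes. ZNF736, ZNF132, ZNF836 and ZNF429 had differences of 2.11, 1.85, 1.80 and 1.79, and ZNF836 overlapped without VHD baseline 3 and VHD post-induction 2.

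**Figure D4:**
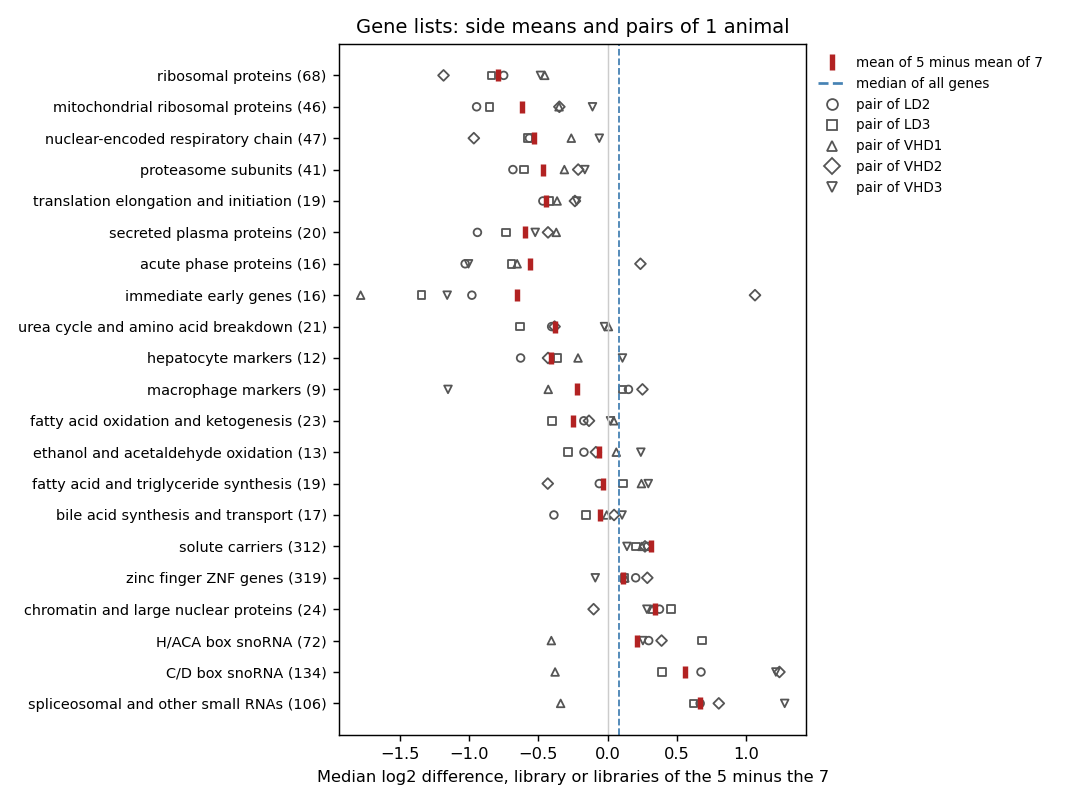
Median log2 difference of the members of 21 gene lists (number of genes measured in parentheses), as the mean of the 5 minus the mean of the 7 (red bars) and within each animal with a library on either side (open symbols). The dashed line is the median of all genes, 0.08. Ribosomal protein medians are negative in each pair, and the snoRNA and small RNA lists are negative for the pair of VHD1.

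The miRNAs parted mostly downward. Of 427 miRNAs, 30 were lower in the 5 libraries without overlap and by at least 2-fold (7.03%) and 11 were higher (2.58%), 41 in all (9.60%). The counts describe the division, as for the genes. Among 155 miRNAs from 3p arms 17 were lower and 1 higher, and among 176 from 5p arms 9 were lower and 7 higher. Of the 41 miRNAs with a mean log2 CPM of at least 10, 7 were lower and 1 was higher. With library totals alone 18 were lower and 5 higher.

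The widest gaps were those of miR-148b-3p and miR-148a-3p, of which miR-148a is known as an abundant hepatocyte miRNA. miR-148b-3p stood at 84.6, 126, 69.6, 81.3 and 127 CPM in the 5 libraries and 1807 to 8049 CPM (median 4505) in the 7, a difference of -5.30. miR-148a-3p stood at 771, 1252, 1142, 1678 and 2927 CPM in the 5 libraries and 16482 to 35628 CPM (median 32238) in the 7, a difference of -4.26. Together they were 0.0876, 0.124, 0.111, 0.230 and 0.313% of the miRNA counts of the 5 and 1.49 to 7.51% of those of the 7, with 95% Wilson intervals of at most 0.111 percentage points to either side. VHD post-induction 1, the boundary library for genes, was here as low as the others of the 5. Within the animals LD2, LD3, VHD1, VHD2 and VHD3 the miR-148b-3p differences were -5.75, -5.29, -5.90, -6.53 and -3.77.

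miR-152-3p, which belongs to the same family, did not part the sides and was chosen after its values were seen. It stood at 121, 157, 118, 108 and 224 CPM in the 5 libraries and 77.9 to 158 CPM (median 124) in the 7, a difference of 0.24 with overlap. In the 5 libraries miR-148b-3p and miR-152-3p were at like levels, and in the 7 miR-148b-3p was far the higher of them. miR-148a-5p, the other arm of the miR-148a hairpin, differed by -2.03 with overlap. Reads of members of a family can be shared in counting, and how the authors divided them is not given in the sources used here.

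Further abundant miRNAs shared the direction. miR-378d stood at 369, 392, 383, 372 and 439 CPM in the 5 libraries and 1429 to 4623 CPM (median 3181) in the 7, and miR-378a, as the table names it, at 213 to 345 CPM in the 5 and 799 to 2288 CPM in the 7. miR-27a-3p stood at 406, 296, 306, 561 and 254 CPM in the 5 libraries and 1368 to 2824 CPM (median 2539.6) in the 7, a difference of -2.54, while miR-27b-3p differed by -1.05 with overlap. miR-145-5p, known from smooth muscle and stellate cells, stood at 83.04, 83.2, 48.7, 73.5 and 68.4 CPM in the 5 libraries and 257 to 1083 CPM (median 573) in the 7. The values of miR-378a, miR-27a-3p and miR-27b-3p were chosen after they were seen.

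Families divided within themselves. In the miR-30 family miR-30d-5p, miR-30b-5p and miR-30c-5p had differences of -2.16, -2.06 and -1.23, all without overlap, while miR-30a-5p and miR-30e-5p had -0.70 and -1.35 with overlap. miR-125b-5p stood at 4998, 6900.3, 5869, 8705 and 14159 CPM in the 5 libraries and 17554 to 37057 CPM (median 29637) in the 7, and miR-125a-5p, with overlap, at 3725 to 8498 CPM in the 5 and 5768 to 10585 CPM in the 7. miR-92a-3p, of the miR-17-92 cluster, stood at 22160.0, 18271, 16264, 21023 and 16679 CPM in the 5 libraries and 29303 to 125960.0 CPM (median 45670.0) in the 7. The summed level of the miR-17-92 list was 22891 to 30568 CPM in the 5 libraries and 36555 to 127503 CPM in the 7, and that of the stromal miRNA list 21783 to 36527 CPM in the 5 libraries and 43709 to 59679 CPM in the 7, neither with overlap. The 42 miRNAs of the DLK1-DIO3 cluster had a median of 0.10, and 3 were lower by at least 2-fold without overlap (7.14%, against 7.03% of all miRNAs).

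Fewer miRNAs were higher, and at lower levels. miR-877-5p, made from an intron by the mirtron route, stood at 459.9, 663, 376, 714 and 416 CPM in the 5 libraries and 81.9 to 290.2 CPM (median 148) in the 7, a difference of 1.71. miR-7185-5p stood at 2771, 2599, 2026, 2080.1 and 2396 CPM in the 5 libraries and 261 to 1712 CPM (median 1054) in the 7. miR-34a-5p, known as induced by p53, stood at 92.6, 92.5, 62.7, 52.2 and 71.5 CPM in the 5 libraries and 7.16 to 49.2 CPM (median 30.9) in the 7. The sides of miR-34a-5p lay close, at 52.2 and 49.2 CPM. miR-507, miR-212-5p and miR-490-5p had differences of 2.24, 2.05 and 1.69, and at least 1 of the 7 libraries had 0 CPM for miR-507 and for miR-212-5p.

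The leading liver miRNA overlapped between the sides. miR-122a-5p, the table's name for miR-122, took 56.2 to 72.4% of the miRNA counts in the 5 libraries and 18.7 to 69.2% in the 7, with VHD baseline 3 (34.9%) and VHD post-induction 2 (18.7%) lowest. The same pair was lowest for miR-21-5p, known from injury and inflammation, at 3418 and 1059.8 CPM, where the 5 libraries stood at 41408 to 68684 CPM. let-7a-5p stood at 12956 to 17277 CPM in the 5 and 2001 to 19192 CPM in the 7. For miR-122a-5p, miR-21-5p and let-7a-5p the differences of 0.29, 1.60 and 0.99 came with overlap, and without the pair they were -0.35, 0.41 and 0.34. miR-16-5p and miR-10a-5p, chosen after their values were seen, moved likewise from 1.15 to 0.23 and from 0.91 to 0.25. miR-148b-3p in this pair was 1807 and 8049 CPM, the lowest and the highest of the 7.

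**Figure D5:**
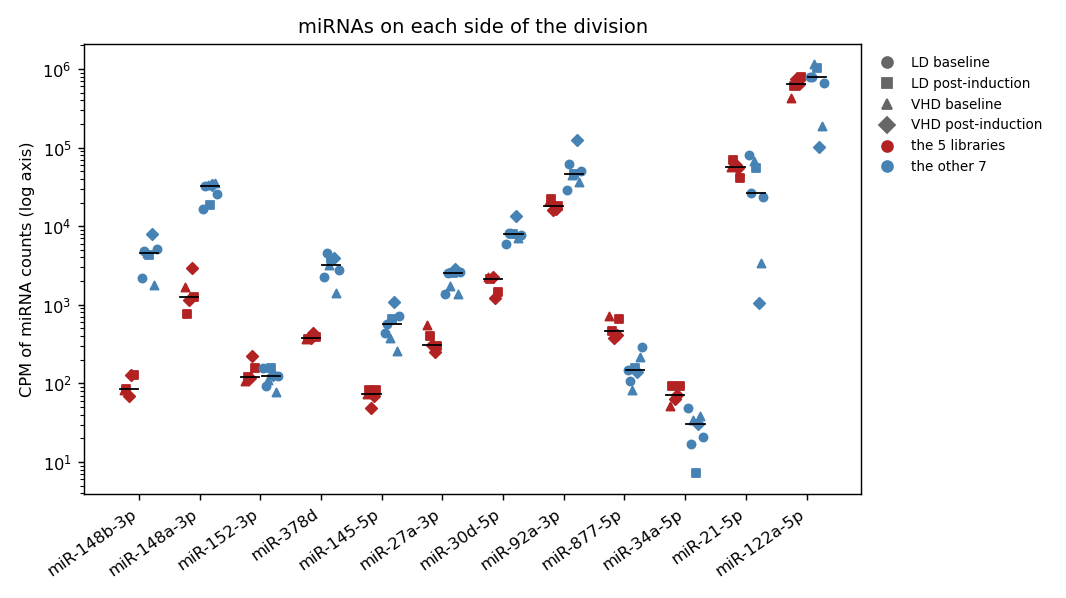
CPM of miRNA counts on a log axis for 12 miRNAs in each library, the 5 in red and the other 7 in blue, with symbols for the groups and a line at each side's median. miR-148b-3p is at 69.6 to 127 CPM in the 5 and at or above 1807 CPM in the 7, miR-152-3p overlaps, and 2 of the 7 libraries are far lower than the rest for miR-21-5p.

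Because 4 of the 5 libraries were post-induction, the division overlaps in part with the comparison of post-induction with baseline. The mean response over LD and VHD, tested with edgeR's quasi-likelihood test and Benjamini-Hochberg adjustment, passed an adjusted p of 0.05 for 49 genes (0.267% of those measured), 3 higher and 46 lower after induction. None of the 49 was among the 845 genes that part the sides. A gene changing the same way in every animal could not part the sides, because VHD2 alone had its baseline library among the 5. That outcome was thus largely fixed by the make-up of the sides. With a term for the division, which was read off the same counts and so is not an independent covariate, the count is a description: 103 genes passed (0.561%), 30 higher and 73 lower, of which 37 were among the 49. All 49 kept their sign, and the median size of their change was 1.84 without the term and 1.80 with it. They were picked for a small p in the same libraries, so kept signs were near certain beforehand. In all 49 the difference between the sides had the same sign as the time response.

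KLF6 had the smallest p, with a change of -2.40 on the log2 scale (SE 0.27, edgeR adjusted p = 0.0117) and of -2.46 with the term. With a block for the animal its change was -2.41 (edgeR adjusted p = 0.0177). DDX5 (an RNA helicase), SLC20A1 (a phosphate transporter), ZFP36 (which destabilizes cytokine messenger RNAs) and NIFK (a nucleolar protein) fell by 1.51, 1.84, 2.86 and 1.42, each with an edgeR adjusted p of 0.0246. The 3 genes that rose were PAEP by 2.92, SCG3 by 3.19 and PDE4B by 1.20. With the block the call was lost for these 7 genes at changes of like size, with edgeR adjusted p of 0.0801, 0.0730, 0.0637, 0.0893, 0.0730, 0.106 and 0.113 in the order named.

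Among the genes that part the sides, the 507 higher in the 5 had a median time change of 0.86 without the division term and -0.12 with it, and the 338 lower had -0.20 and 0.36. These medians depend on which libraries of the 5 are post-induction, and they describe the division. Libraries of 1 animal are paired, and with a replicate block for the animal 4 genes passed, all 4 among the 49. All 49 kept their sign, which was again near certain beforehand. With the block and the division together 305 genes passed. Without the term the count depended on single libraries, with 0 genes without LD post-induction 2 or VHD post-induction 1, 1 without VHD baseline 1 or LD baseline 3, 2 without VHD post-induction 3, 4 without LD post-induction 3, 12 without LD baseline 2 and 31 without VHD baseline 2. With the term it ran from 0, without LD post-induction 1, to 164, without VHD baseline 3. For miRNAs none of 427 passed with edgeR in either fit, and 11 and 19 had an unadjusted p under 0.05.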

How the data were processed

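Gene and miRNA counts came from 12 libraries in 4 groups of 3. The authors' deposited raw tables hold expected counts per transcript and per mature miRNA; per the submitters' processing notes, reads were handled with Partek, BWA and Bowtie on Mmul_8.0.1, with versions and roles not given in the sources used here. The authors' deposited normalized tables hold signal values and served 1 alternative. The 40611 transcripts were summed into 23993 genes and rounded. Of these identifiers 15471 had a symbol. A start coordinate may differ by 1 base, since the table does not say from where it counts. filterByExpr left 18373 genes and 427 miRNAs. CPM used TMM factors, and log2 CPM a prior count of 2 (edgeR 4.0.16, limma 3.58.1, R 4.3.3; DESeq2 1.42.0 as an alternative). Fits were tested on simulated data.

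The libraries, the 51 gene lists and the 13 miRNA lists were chosen with earlier results of these data known. Named features were those with no overlap and a mean log2 CPM of at least 1 (miRNAs 3): the 10 (miRNAs 5) largest in each direction, up to 4 per list, a fixed panel, and the 5 smallest p in each direction of the time response. CYP3A4, MALAT1 and NEAT1 of the panel matched no identifier. A gene that the rule names is not reported here. The main fit had no animal term. The titles number the animals, so the 2 biopsies of an animal are paired; the correlation of their deviations from the group means was 0.07, -0.02, 0.35, 0.41, -0.35 and 0.10 for LD1, LD2, LD3, VHD1, VHD2 and VHD3. In the main fit, with 3 libraries per group, p-values measure the spread between animals of a group and leave the pairing out. The block for the animal and the sign flips rest on differences within animals. Fisher's tests and the permutation splits count the libraries as independent. Counts are reads without molecular identifiers, and no sequences are shown.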

Additional observations from a re-analysis of the deposited data

Results flagged for a closer look

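Within the 5 and within the 7 libraries, 100 sets of values (6 library measures, and the leading genes and miRNAs) were searched for a highest or lowest library far from its neighbour. This found 12, all of them highest values. The cutoffs flag about 1 in 20 sets of independent, normally distributed values. The sets share libraries and the CPM were not on a log scale, so that rate does not apply and 12 is not read as an excess. VHD baseline 2 was the highest of the 5 for CRP (262 CPM, the next 48.4), KLF6 (178 CPM, the next 63.4), HAMP (2522 CPM, the next 864) and miR-490-5p (124 CPM, the next 83.2), and it is the baseline library of the 5. VHD post-induction 3 was the highest of the 5 for FASN (541 CPM, the next 165), and VHD post-induction 1 for KRT12 (5.52 CPM, the next 1.62). VHD post-induction 2 was the highest of the 7 for DHRS13 (52.4 CPM, the next 21.7), PACSIN3 (61.8 CPM, the next 35.4) and LAGE3 (11.9 CPM, the next 7.47). VHD baseline 3 was the highest of the 7 for HAS1 (44.2 CPM, the next 22.0), VHD baseline 1 for U12 (3.52 CPM, the next 1.73), and LD baseline 3 for the share of C/D box snoRNA counts (12.2%, the next 8.35%).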

How the results depend on the processing

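With 11 libraries, 9 to 11 lay on their own side of component 1, the lowest without LD post-induction 2, VHD post-induction 2 or LD post-induction 3. The 845 genes that part the sides became 524 with the deposited normalized values and 1404 without VHD post-induction 2 and VHD baseline 3, an alternative chosen after seeing the data, as were the alternatives for the lists. Leaving out each library gave 856 to 1676 genes, the highest without VHD post-induction 1, and 43 to 54 miRNAs. The 41 miRNAs became 23 with library totals alone. For 79 named features that part the sides, 423 differences under other settings held 421 within 1 SD, 2 (ZNF736 and MKI67) beyond it and none of opposite sign. These features were chosen for wide differences without overlap, so a kept sign was near certain beforehand. The induction response passed for 49 genes, 284 with DESeq2, 103 with the division, 4 with a replicate block (animal), 305 with both, and 0 to 71 without each library; the cause was not tested. The miRNA count p, 0.130, ran from 0.0152 (without VHD post-induction 1) to 0.279, the transcript count p from 0.113 to 0.824, and the p of their ratio from 0.00216 to 0.0182. With a replicate block (exact sign flips within animals) the p of the ratio was 0.0625, no longer past the threshold, which that test cannot reach. The number of libraries, 3 per group and 5 against 7, limits the precision, and low counts limit the genes near 1 CPM.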
